A study of Mus musculus with 12 samples.

Results

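The clustered protocadherins were examined in the brain transcriptomes of mice exposed to chronic unpredicted mild stress (CUMS), krill oil or both. Members were the genes with a symbol of the Pcdha, Pcdhac, Pcdhb, Pcdhga, Pcdhgb or Pcdhgc series, which gave 58 of the 55385 genes in the expression table, with 14 in the alpha, 22 in the beta and 22 in the gamma cluster. RNA came from the brains of 12 WT mice of strain C57/BL6J, all male and 8 weeks old at purchase, with 1 library per mouse. C_W mice received neither treatment and were given water, C_O mice received krill oil by gavage at 200 mg/kg per day, MS_W mice received CUMS for 4 weeks with water, and MS_O mice received both CUMS and krill oil, with 3 mice in each group. Poly(A) RNA was sequenced by a strand-marking protocol, and levels were given in FPKM, the fragments per kilobase of transcript scaled to the mapped fragments of a library. The label gives the tissue as brain and the methods as whole brain, so each value is a mixture of all cells in the sample.

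Clustered protocadherins are adhesion molecules of the cadherin superfamily that sit on the surface of neurons. In the alpha and gamma clusters, each gene has its own promoter and its own first exon, which encodes the extracellular, transmembrane and proximal cytoplasmic part, and this exon is spliced to constant exons used by the whole cluster. Beta genes have a single coding exon and no constant part. A neuron uses a small set of alternative promoters, chosen largely at random with help of the chromatin protein CTCF and the cohesin complex, and the resulting mixture of proteins binds only to the same mixture on another membrane, which lets a neuron tell its own branches from those of other cells. The C-type genes at the ends of the alpha and gamma clusters are used in a more regular way, and some of them mark particular neurons.

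In the mm10 assembly used for the table, all 58 genes lay on chromosome 18. The alpha genes spanned 36930184 to 37187661, the beta genes 37264938 to 37524479 and the gamma genes 37661793 to 37841873. In the GENCODE M21 annotation, 56 of the 58 members had the same start and end as in the table. The longest annotated transcript with 4 exons was taken as the model of each alpha and gamma gene. Its last 3 exons lay over those of all other members of its cluster. The 14 alpha models had 2860 bases in common, which was a median of 53.5% of the transcript of a member, and the 22 gamma models had 2116 bases in common, a median of 44.9%. Reads from these bases cannot be assigned to 1 gene from their position alone, so the FPKM of an alpha or gamma member depended on how the authors' tools divided such reads. No base was common to the beta models, and only Pcdhb21 and Pcdhb22 overlapped, by 455 bases. The symbol Pcdha11 stood for 2 identifiers, ENSMUSG00000007440 and ENSMUSG00000102206, which were kept apart.

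The libraries held between 50912906 and 75678721 estimated counts. The 6 neuron markers, among them the synaptic protein Snap25 and the nuclear protein Rbfox3, summed to between 815 and 1275 FPKM, which marks neural tissue of any region. Of the 12 libraries, C_O72 and MS_W95 were unlike the remaining 10. Over the tested genes their log2 levels correlated at 0.970 with each other and at no more than 0.937 with any other library, while the other 10 correlated with each other at 0.959 or more. A list of 6 hindbrain markers, 5 of them Hox genes, summed to 61.4 FPKM in C_O72 and 21.8 in MS_W95 against at most 0.0974 in the others, and 6 cortex markers summed to 44.0 and 60.9 against 146 to 420. The region markers went against whole brain in most libraries. The cerebellar genes Pcp2, of Purkinje cells, and Gabra6, of granule cells, were at most 0.212 and 0.129 in 10 libraries, against 31.3 and 23.9 in C_O72 and 114 and 91.3 in MS_W95. The 6 cerebellum markers summed to 470 and 968 in these 2 libraries and to 33.6 to 98.3 in the others, and the 4 choroid plexus markers ran from 2.10 to 4808. The part of these differences in the protocadherin values was not tested. Comparisons of the members and gene lists are given with and without C_O72 and MS_W95. In bulk RNA, fewer cells of a type and less RNA per cell cannot be told apart.

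Most members were expressed at a low level. The mean FPKM over the 12 libraries had a median of 0.696 in the alpha, 1.27 in the beta and 2.69 in the gamma cluster, and it exceeded 1 for 4 of 14 alpha, 13 of 22 beta and 19 of 22 gamma members. The highest alpha member was the C-type gene Pcdhac2 (ENSMUSG00000102697), with a mean of 4.46, and the lowest was Pcdha8, with 0.128. In the beta cluster Pcdhb9 was highest, with a mean of 4.54, and Pcdhb1 was lowest, with 0.00520 and a floor value of 0.0001 FPKM in 9 of 12 libraries. Pcdhb1 was the only member below the mean FPKM of 0.1 required for a test, so 57 members were tested among 21393 genes. In the gamma cluster Pcdhga9 (37.5), Pcdhga2 (32.5) and Pcdhgb1 (15.4) had the highest means, and Pcdhga8 (0.380) and Pcdhgb5 (0.708) were the lowest of the a and b types. These gamma means hid the main feature of the gamma FPKM estimates, which was their division among the libraries. How far this came from the way reads of the shared bases were divided was not tested.

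In every library 1 gamma gene, and never more than 1, exceeded 50 FPKM, and which gene it was differed between mice. Its FPKM lay between 60.4 and 108, it held between 46.5% and 63.2% of the summed gamma FPKM, and the next gamma gene reached only 8.03 to 19.5. Pcdhga2 (ENSMUSG00000103332, 37668953 to 37841870) held this place in 4 libraries, with an FPKM of 84.5 in C_W64, 106 in C_O30, 60.4 in C_O72 and 102 in MS_O13, and it lay between 2.09 and 10.8 in the other 8. Pcdhga9 (ENSMUSG00000102440, 37736936 to 37841870) held it in 5 libraries, with 68.7 in C_W70, 72.6 in C_O15, 80.7 in MS_W75, 89.5 in MS_O46 and 108 in MS_O78, and it lay between 0.653 and 8.91 in the other 7. Both genes changed place within groups, so that the C_W, C_O and MS_O groups each held libraries led by Pcdhga2 and libraries led by Pcdhga9.

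Pcdhgb1 (ENSMUSG00000103037, 37680233 to 37841870) led the MS_W libraries MS_W31, at 74.2 FPKM, and MS_W95, at 68.4, and lay between 1.34 and 10.005 in the other 10. Pcdhgb4 (ENSMUSG00000103585, 37720369 to 37841870) led C_W1 alone, at 88.1 FPKM, and lay between 0.488 and 6.005 in the other 11. No group had the same leading gene in all 3 of its libraries. The plot of gamma members by library shows these 12 values as single bright cells in the columns.

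**Figure D1:**
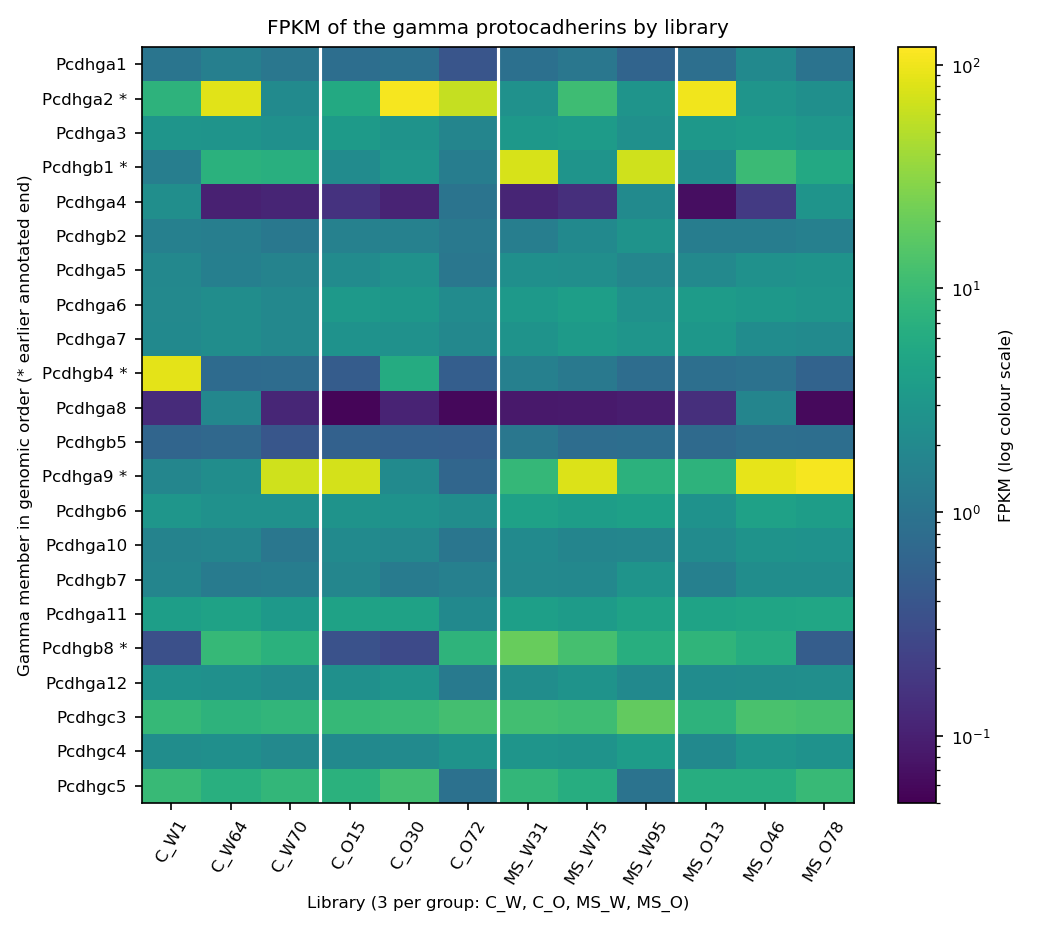
FPKM of the 22 gamma members (rows, in genomic order) in the 12 libraries (columns, 3 per group, white lines between groups), on a log colour scale; stars mark the 5 gene models with the earlier annotated end. Each column holds a single cell above 50 FPKM, and all 12 of these cells are in starred rows.

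The 4 leading genes shared a detail of their annotation. Of the 22 gamma gene models, 5 ended at base 37841870 and 17 ended 3 bases later, at 37841873. The 4 genes that led a library were all among the 5 with the earlier end, and the fifth gene was Pcdhgb8 (ENSMUSG00000103081, 37761801 to 37841870). Pcdhgb8 was below 0.5 FPKM in C_W1, C_O15, C_O30 and MS_O78 and between 6.28 and 19.5 in the other 8 libraries. Summed over the 5 genes with the earlier end, the FPKM lay between 70.8 and 120 in the 12 libraries. Summed over the 17 genes with the later end, it lay between 33.2 and 57.1. The highest value of these 17 in any library was that of Pcdhgc3 in MS_W95, at 18.5. The constant exons had otherwise the same starts and ends in both sets. Whether the annotated end took part in how reads were divided among the gamma genes was not tested.

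Other members of the gamma cluster also lay at separate levels. Pcdhga4 had an FPKM of 2.35 in C_W1, 2.06 in MS_W95, 2.78 in MS_O78 and 1.01 in C_O72, and it was at 0.190 or less in the other 8 libraries. Pcdhga8 was at 1.86 in C_W64 and 1.75 in MS_O46, and at 0.144 or less in the other 10. For both genes the high libraries came from different groups. By contrast, the values of Pcdhga3 (1.71 to 3.62), Pcdhga11 (1.99 to 4.97) and Pcdhga12 (1.23 to 2.89) ran without such a gap.

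The beta members, which share no constant exon, held a few such cases. Pcdhb22 (ENSMUSG00000073591, 37517871 to 37524479) was at 0.3303 FPKM in MS_W31, 0.262 in MS_W75 and 0.402 in MS_O46, and between 1.52 and 2.08 in the other 9 libraries. Its overlapping neighbour Pcdhb21 (ENSMUSG00000044022, 37513621 to 37518325) was highest in the same 3 libraries, at 0.406, 0.663 and 0.643, and at 0.381 or less elsewhere. It was listed at the floor in 5 libraries, C_W64, C_O15, C_O30, C_O72 and MS_O13. Their summed FPKM was 0.737, 0.925 and 1.05 in these libraries and 1.64 to 2.13 in the others. The gene models differ in length, so this sum is not a total of reads. How reads of the shared bases were divided between these neighbours was not tested. Pcdhb19 (ENSMUSG00000043313) was listed at the floor in C_W1 and MS_O13, while it lay between 0.456 and 1.27 in the other 10 libraries. A value at the floor can be a failed estimate, so no fold change is given for Pcdhb19.

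**Figure D2:**
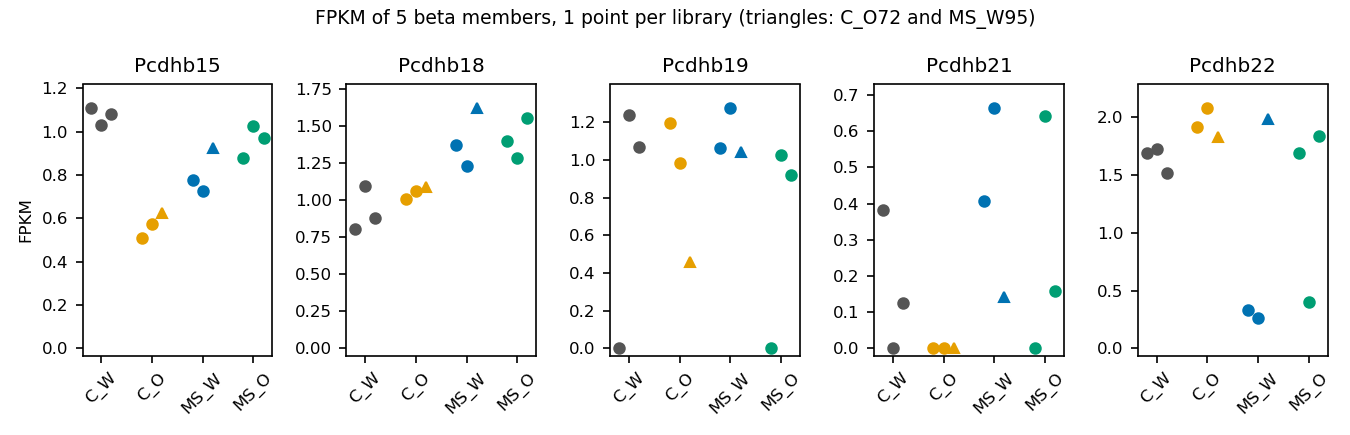
FPKM of 5 beta members by group, with 1 point per library (circles, or triangles for C_O72 and MS_W95). Pcdhb15 is lowest in all 3 C_O libraries (0.511 to 0.624), Pcdhb19 is at the floor in C_W1 and MS_O13, and Pcdhb22 has 3 libraries at 0.402 or less. Pcdhb21 is at the floor in 5 libraries.

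The spread over all 12 libraries was compared with that of other genes. The SD of log2(FPKM + 1) had a median of 0.19 over the 21 tested beta, 0.22 over the 14 alpha and 0.27 over the 22 gamma members, against 0.21 over all tested genes and 0.24 over those with a mean of 0.5 to 5 FPKM. The SD on this scale depends on the level. The beta members tended to be high and low in the same libraries, with a median pairwise correlation of 0.31 over 210 pairs, and 0.34 in the 10 libraries without C_O72 and MS_W95. The median was 0.19 over the 91 alpha pairs and -0.02 in the 10 libraries, and 0.17 in both cases over the 231 gamma pairs. These correlations are across libraries that share depth and composition, and they are given as a description. The 5 genes outside the clusters whose log2 level was most like the summed beta FPKM, out of 13585 genes with a mean of at least 1 FPKM, were Elmsan1 (r = 0.962 over 12 libraries), Tmem136 (0.959), Irf2bpl (0.947), Zcchc14 (0.947) and Leng8 (0.942). In the 10 libraries their r lay between 0.904 and 0.958.

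The 5 C-type members were present in all 12 libraries, and they differed in where they were high. Pcdhgc3 (ENSMUSG00000102918), a gene of the gamma cluster that is also used outside neurons, was the highest of them, at 9.14, 7.65 and 8.42 FPKM in C_W, 9.12, 9.68 and 11.6 in C_O, 11.3, 10.7 and 18.5 in MS_W, and 7.56, 12.98 and 12.1 in MS_O. All 3 MS_W values were above the C_W values, and the highest came from MS_W95. Pcdhgc4 (ENSMUSG00000023036), the gamma gene that is needed for the survival of certain neurons, was at 2.29, 2.43 and 1.94 in C_W, 1.99, 2.08 and 2.69 in C_O, 2.86, 2.76 and 3.67 in MS_W, and 2.02, 2.96 and 2.67 in MS_O. Its highest value was again that of MS_W95, and MS_W and C_W did not overlap.

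Pcdhgc5 (ENSMUSG00000102543), the last gene of the cluster, divided the libraries in another way. Its FPKM was 0.899 in C_O72 and 0.980 in MS_W95, and between 6.33 and 11.5 in the other 10. No other library came near these 2 values, and the cause was not tested. Pcdhac2 (ENSMUSG00000102697), which is used by serotonin neurons for the spacing of their axons, was at 4.78, 5.40 and 4.67 in C_W, 5.53, 5.58 and 3.34 in C_O, 3.73, 4.27 and 4.74 in MS_W, and 4.67, 3.58 and 3.29 in MS_O. Pcdhac1 (ENSMUSG00000103255) lay between 0.240 and 0.906, with a mean of 0.716 ± 0.171 (SD, n = 3) for C_W, 0.629 ± 0.1999 for C_O, 0.517 ± 0.312 for MS_W and 0.344 ± 0.0995 for MS_O. A list of 4 serotonin neuron markers summed to 41.9 FPKM in MS_W95 and 9.96 in C_O72 against 1.04 to 3.29 in the other 10 libraries, while Pcdhac2 in these 2 libraries (4.74 and 3.34) was within the range of the others (3.29 to 5.58).

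**Figure D3:**
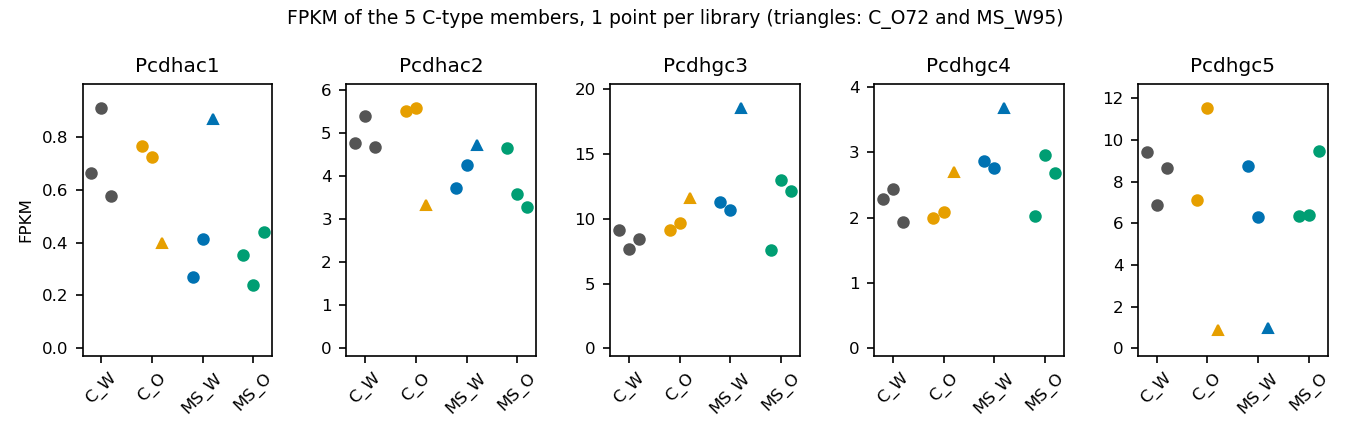
FPKM of the 5 C-type members by group, with 1 point per library (circles, or triangles for C_O72 and MS_W95). The triangles of Pcdhgc5 are at 0.899 and 0.980, below the 6.33 to 11.5 of the other 10 libraries, and the triangle of MS_W95 is the highest point of Pcdhgc3 (18.5) and Pcdhgc4 (3.67).

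Besides Pcdhgc5, 9 members were lower in both C_O72 and MS_W95 than in all other libraries: Pcdha5, the Pcdha11 gene ENSMUSG00000102206, Pcdha12, Pcdhb7, Pcdhb9, Pcdhb13, Pcdhb20, Pcdhga1 and Pcdhga12. These 10 were 17.5% of the 57 tested members, against 11.7% of all tested genes. No member was higher in both libraries than in the rest, whereas 16.3% of all tested genes were. The median difference of these 2 libraries from the other 10 was -0.14 over the members and 0.03 over all tested genes, on the log2(FPKM + 1) scale.

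The summed FPKM of the clusters gave their level in each group. The alpha sum was 15.7 ± 1.21 (SD, n = 3) for C_W, 13.9 ± 4.14 for C_O, 12.9 ± 0.873 for MS_W and 13.6 ± 0.767 for MS_O. All MS_W and MS_O libraries (12.3 to 14.5) were below all C_W libraries (14.8 to 17.1). The C_O libraries were at 16.6, 15.9 and, for C_O72, 9.10. Without C_O72 and MS_W95 the means were 16.3 for C_O and 13.1 for MS_W.

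The beta sum went the other way, with 29.5 ± 1.43 for C_W, 28.5 ± 4.99 for C_O, 32.1 ± 1.18 for MS_W and 35.5 ± 5.65 for MS_O. MS_W (30.8 to 33.1) and C_W (28.4 to 31.1) overlapped, and so did MS_O (29.0 to 39.2) and C_O (23.1 to 32.8). Without the 2 libraries the beta means were 31.2 for C_O and 32.7 for MS_W. The gamma sum was 140 ± 12.4 for C_W, 133 ± 32.5 for C_O, 153 ± 10.8 for MS_W and 168 ± 5.42 for MS_O, again with overlap between MS_W and C_W, and without the 2 libraries it was 148 for C_O and 159 for MS_W.

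For the 17 gamma genes with the later end, the sum was 44.0 ± 3.90 for C_W, 43.5 ± 9.13 for C_O, 52.7 ± 1.71 for MS_W and 52.6 ± 7.48 for MS_O. Here MS_W (50.9 to 54.4) was above C_W (40.2 to 48.0) in all libraries, and MS_O (43.9 to 57.1) overlapped C_O (33.2 to 50.6). Without C_O72 and MS_W95 the means were 48.6 in C_O and 51.9 in MS_W. This set was formed after its values were seen, and the sums carry no test.

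**Figure D4:**
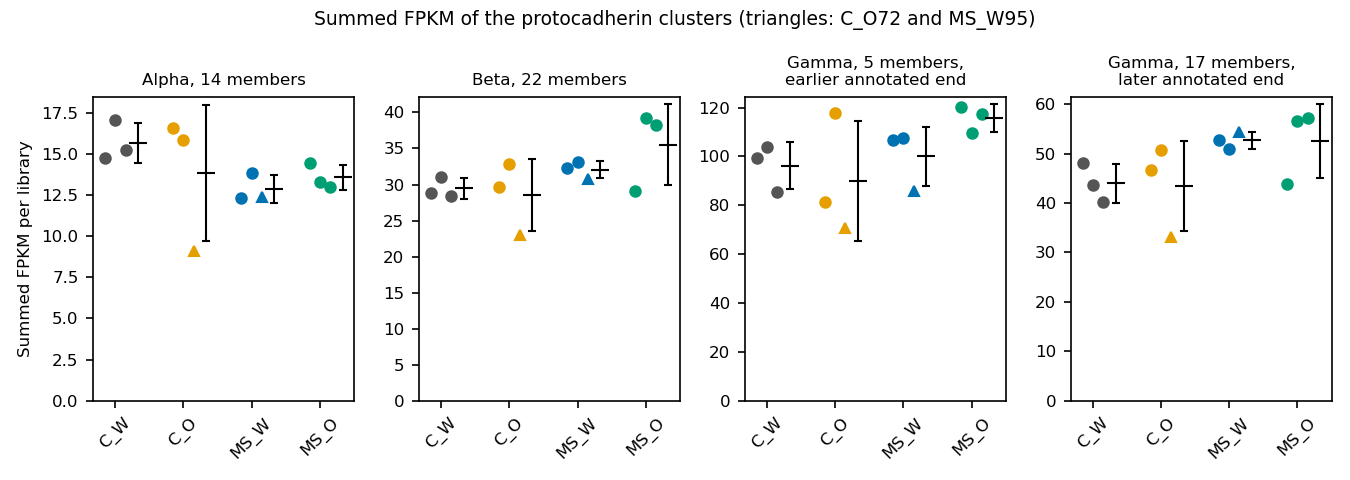
Summed FPKM per library of the alpha cluster, the beta cluster and the gamma members with the earlier and the later annotated end, by group (points, with triangles for C_O72 and MS_W95; the bar is the mean ± SD of 3 libraries). The alpha sums of MS_W and MS_O lie below those of C_W, and the sums of the 17 gamma members with the later end are higher in MS_W (50.9 to 54.4) than in C_W (40.2 to 48.0).

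The first comparison, MS_W with C_W, asks what CUMS changed in mice without krill oil. Several gamma members that did not lead any library were higher in MS_W, among them Pcdhgb6, Pcdhga6, Pcdhgb5 and Pcdhga7, and Pcdhb15 was lower. No member passed an adjusted p of 0.05 in limma, and the smallest adjusted p was 0.320. Of all tested genes, 0.00467% passed it. At an unadjusted p under 0.05, 12 of 57 members were called, or 21.1%, against 10.5% of all tested genes. Of these, 11 were higher, against 6.71% of all tested genes, and 1 was lower, against 3.79%. The count was 6 without C_W1 and 5 without C_W70. By cluster the 12 were 9 of 22 gamma, 3 of 21 beta and 0 of 14 alpha members. The median log2FC was 0.27 in the gamma, 0.07 in the beta and -0.16 in the alpha cluster, and 0.06 over the members as over all tested genes.

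Pcdhgb6 was at 2.95, 2.57 and 2.55 FPKM in C_W and 4.33, 3.84 and 4.18 in MS_W, a log2FC of 0.47 (SE 0.14, unadjusted p = 0.00711). The groups did not overlap, and the value without both libraries was 0.46. Pcdhga6 was at 1.98, 2.24 and 1.88 in C_W and 3.41, 3.95 and 2.54 in MS_W, a log2FC of 0.49 (SE 0.16, unadjusted p = 0.0110). Its lowest MS_W value was that of MS_W95, and in the fit of the 10 libraries it was the only member past the adjusted threshold, with a log2FC of 0.63 and an adjusted p of 0.0403 by limma, which 1.15% of all tested genes passed there. Pcdhb18 was at 0.808, 1.10 and 0.882 in C_W and 1.38, 1.23 and 1.62 in MS_W, with a log2FC of 0.32 (SE 0.10, unadjusted p = 0.01001). Its groups did not overlap either.

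Without overlap of the groups, 12 of 57 members were higher and 6 lower, against 16.3% and 8.22% of all tested genes. The other gamma members called higher were Pcdhgb5 (log2FC 0.28), Pcdhga7 (0.38), Pcdhgb7 (0.38), Pcdhgb2 (0.36), Pcdhgc4 (0.34), Pcdhgc3 (0.59) and Pcdhgb1 (2.34). Except for Pcdhgb2 and Pcdhgb1, their MS_W values lay above all C_W values. The log2FC of Pcdhgb1 rested on MS_W31 and MS_W95, which it led, and its SE was 1.02. Pcdhb14 was the other beta gene called higher (0.30). The members with the largest lower values were also leading genes, with a log2FC of -1.62 (SE 1.26) for Pcdhgb4 and -1.28 (SE 1.57) for Pcdhga2, and neither passed the unadjusted threshold. Pcdhgb8 had a log2FC of 1.40 (SE 0.99) and did not pass it.

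Without C_O72 and MS_W95, 11 members were called at the unadjusted threshold, 7 higher and 4 lower, against 15.4% of all tested genes (9.66% higher and 5.69% lower), and 6 of the 12 members called in all 12 libraries remained (Pcdhgb6, Pcdhb18, Pcdhga6, Pcdhgb5, Pcdhga7 and Pcdhb15). Pcdhgc3, at 0.35, and Pcdhgc4, at 0.24, were no longer called. Newly called were Pcdha2 (0.58) and Pcdhga5 (0.35) as higher and Pcdha12 (-0.33), Pcdhac1 (-0.35) and Pcdhb22 (-1.03) as lower. By cluster, 5 gamma members were called higher and 0 lower. In the beta cluster 1 was higher and 2 lower, and in the alpha cluster 1 was higher and 2 lower. The division of 11 higher and 1 lower also depended on scaling: it was 5 higher and 4 lower with libraries centred on their median, and 7 higher and 2 lower after quantile normalization. The shares of all tested genes under these scalings are not given here. The summed FPKM of the 6 neuron markers was 815 to 901 in MS_W against 1036 to 1106 in C_W, that of the 6 cortex markers 60.9 to 152 against 364 to 415, and that of the 6 striatum markers 144 to 849 against 77.4 to 155. The 6 hypothalamus markers summed to 97.1, 94.8 and, in MS_W95, 2.24 against 1.08 to 1.80, without overlap. Their neuropeptide genes Avp (log2FC 3.57, SE 1.20) and Oxt (3.03, SE 1.01) were called higher. The 4 serotonin neuron markers summed to 2.98 to 41.9 against 1.40 to 1.82, also without overlap. In MS_W31 and MS_W75 most of this sum was Ddc, at 2.73 and 3.19. Tph2 was at 0.202 and 0.0868 there, within the 0.0642 to 0.389 of C_W, and at 20.5 in MS_W95. No marker of these lists was at the floor in all libraries, and the part of these shifts in the protocadherin values was not tested.

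**Figure D5:**
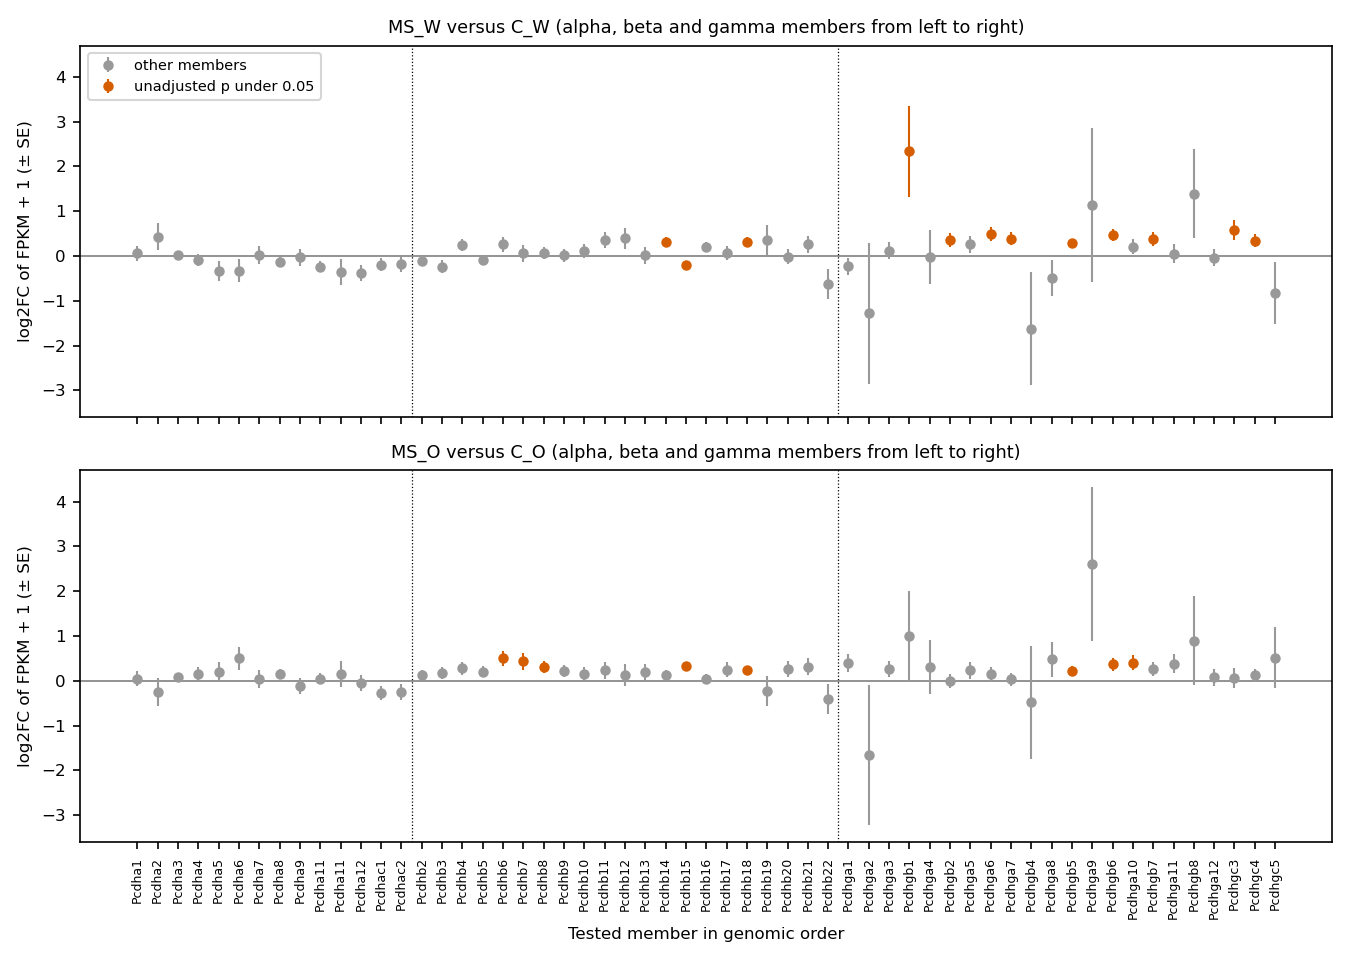
The log2FC of FPKM + 1 (y axis, ± SE from limma) of the 57 tested members in genomic order (x axis) for MS_W versus C_W (top) and MS_O versus C_O (bottom), with members at an unadjusted p under 0.05 in orange. In this fit of all 12 libraries, orange points lie mostly in the gamma cluster in the top panel (9 of 12). In the bottom panel they lie mostly in the beta cluster (5 of 8). The genes that led a library have the longest error bars.

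The second comparison, MS_O with C_O, asks the same question in mice given krill oil. Here 8 members had an unadjusted p under 0.05 and all were higher in MS_O, which was 14% of the members against 8.88% of all tested genes, or 6.69% counted upward alone. The count was 5 without C_W1 or C_O72, 3 without MS_O78, 2 without MS_O46 and 14 without MS_O13. The 8 were 5 of 21 beta and 3 of 22 gamma members, and no alpha member. None passed the adjusted threshold (smallest adjusted p = 0.479 by limma), which 0.00467% of all tested genes passed. A positive log2FC was seen for 47 of 57 members, against 56.7% of all tested genes, and the median log2FC was 0.19 against 0.03. In 8 members the groups did not overlap with MS_O higher, against 8.9% of all tested genes, and in none with MS_O lower, against 3.29%.

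Pcdhb15 was at 0.511, 0.572 and 0.624 FPKM in C_O and 0.877, 1.02 and 0.972 in MS_O, with a log2FC of 0.32 (SE 0.08, unadjusted p = 0.00301). Pcdhb6 was at 0.798, 0.882 and 0.718 in C_O and 0.954, 2.17 and 1.64 in MS_O, with a log2FC of 0.50 (SE 0.17, unadjusted p = 0.0135). Pcdhb8 was at 1.04, 1.09 and 1.27 in C_O and 1.29, 1.85 and 1.83 in MS_O, with a log2FC of 0.31 (SE 0.13). The groups did not overlap for any of the 3 genes, although C_O72 and MS_O13 came close for Pcdhb8. The others were Pcdhb7 (0.43), Pcdhb18 (0.23), Pcdhgb6 (0.37), Pcdhga10 (0.40) and Pcdhgb5 (0.23), and only Pcdhgb6 had overlapping groups. The 2 largest log2FC in each direction belonged to genes that led a library, with 2.61 (SE 1.72) for Pcdhga9, 1.00 (SE 1.02) for Pcdhgb1, -1.66 (SE 1.57) for Pcdhga2 and -0.48 (SE 1.26) for Pcdhgb4, and none of them was called.

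Without C_O72 and MS_W95, Pcdhb15, Pcdhb6, Pcdhb8 and Pcdhb18 kept an unadjusted p under 0.05 and no gamma gene did, while Pcdhac1 (-0.38) and Pcdhac2 (-0.45) were called lower, so that 6 members were called against 13.6% of all tested genes (9.62% higher and 3.99% lower). With median centring 2 were higher and 1 lower, after quantile normalization 2 were higher, and in DESeq2 8 were higher and 1 lower. The shares of all tested genes beside these counts are not given here. The median log2FC of the members was 0.07 in the 10 libraries, against 0.05 over all tested genes. The 5 olfactory bulb markers summed to 33.5 to 200 FPKM in MS_O and 7.68 to 21.3 in C_O, and the part of this in the protocadherin values was not tested.

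For krill oil without CUMS, C_O was compared with C_W. Pcdhb15 (ENSMUSG00000047033, 37473540 to 37476340), a single-exon gene, was the only member with an unadjusted p under 0.05, or 1.75% of the members against 3.55% of all tested genes, or 2.04% counted downward alone. Leaving out 1 library gave 1 or 2 members, except for 4 without C_O72. It was at 1.11, 1.03 and 1.08 FPKM in C_W and 0.511, 0.572 and 0.624 in C_O, so that the lowest C_W value was above the highest C_O value. Its log2FC was -0.40 (SE 0.08, unadjusted p = 0.000609), and its adjusted p by limma was 0.908, the smallest of any member in this comparison, with 0% of all tested genes past the adjusted threshold. In the 10 libraries its log2FC was -0.43. In these, 4 members were called at the unadjusted threshold, with Pcdhb12 (0.67), Pcdhga6 (0.48) and Pcdhga5 (0.35) as the others and 4.06% of all tested genes. Over all 12 libraries, the groups did not overlap for 1 member that was higher and 4 that were lower, against 4.08% and 5.34% of all tested genes. The 2 largest log2FC in each direction were 1.41 (SE 1.57) for Pcdhga2 and 0.53 (SE 0.24) for Pcdhb12 upward, and -1.39 (SE 1.26) for Pcdhgb4 and -0.94 (SE 0.99) for Pcdhgb8 downward. The 6 hypothalamus markers summed to 1.97 to 16.1 FPKM in C_O against 1.08 to 1.80 in C_W, without overlap. The 6 striatum markers summed to 129 to 372 against 77.4 to 155, with overlap. The part of these shifts in the protocadherin values was not tested.

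For krill oil under CUMS, MS_O was compared with MS_W. No member had an unadjusted p under 0.05 in limma, against 6.09% of all tested genes, and the smallest adjusted p was 0.819, with 0.00467% of all tested genes past the adjusted threshold. The 2 largest log2FC in each direction were those of Pcdhga9 (1.22, SE 1.72) and Pcdhga2 (1.03, SE 1.57) upward and of Pcdhgb1 (-2.13, SE 1.02) and Pcdhgb8 (-1.45, SE 0.99) downward. All 4 were genes with the earlier annotated end. Leaving out 1 library gave 0 or 1 called member, except for 2 without MS_W75 and 4 without MS_O13. The groups did not overlap for 6 members that were higher in MS_O and 2 that were lower, against 4.64% and 7.66% of all tested genes. In the 10 libraries 3 members were called, as were 8.54% of all tested genes: Pcdha2 (-0.76), Pcdhb22 (0.77) and Pcdhga11 (0.27). Pcdha2 was at 0.869 and 2.16 FPKM in MS_W31 and MS_W75 and at 0.660, 0.380 and 0.298 in MS_O. The 6 cortex markers summed to 240 to 291 FPKM in MS_O against 60.9 to 152 in MS_W, without overlap. The 6 hypothalamus markers summed to 3.15 to 5.28 in MS_O against 97.1, 94.8 and, in MS_W95, 2.24. The part of these shifts in the protocadherin values was not tested.

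The interaction of CUMS and krill oil asks whether the difference made by CUMS was the same with and without the oil. Pcdhb15 was 0.20 lower in MS_W than in C_W (log2FC -0.20, SE 0.08) and 0.32 higher in MS_O than in C_O, and the interaction was 0.52 (SE 0.12, unadjusted p = 0.00121). Its FPKM was 1.07 ± 0.0394 (SD, n = 3) for C_W, 0.569 ± 0.0568 for C_O, 0.809 ± 0.102 for MS_W and 0.958 ± 0.0745 for MS_O, and the C_O libraries did not overlap any other group. Pcdhga1 (0.63, SE 0.28) and Pcdha6 (0.83, SE 0.37) were the other members with an unadjusted p under 0.05. These 3 were 5.26% of the members, against 7.23% of all tested genes, and the count was 1 without C_W64, C_W70 or MS_O46 and 5 without C_O15 or MS_O13. In the 10 libraries Pcdhb15 (0.59) was called with Pcdhga7 (-0.49) and Pcdhga6 (-0.62), as were 7.51% of all tested genes. The smallest adjusted p, that of Pcdhb15, was 0.462 in limma, and 0% of all tested genes passed the adjusted threshold. The comparisons share their control groups, and Pcdhb15 in C_O entered 3 of the 5. The 2 largest interactions in each direction, none of them called, were 1.47 (SE 2.43) for Pcdhga9 and 1.35 (SE 0.98) for Pcdhgc5 upward and -1.34 (SE 1.44) for Pcdhgb1 and -0.69 (SE 0.44) for Pcdha2 downward. Pcdhga9 and Pcdhgc5 changed sign without C_O72 and MS_W95. At the unadjusted threshold, 3 of 5 olfactory bulb and 2 of 6 cortex markers were called higher in the interaction. Lower were 2 of 6 hypothalamus, 2 of 4 thalamus and 1 of 6 cerebellum markers. In the 10 libraries 0 of 5 olfactory bulb markers were called, and 4 of 6 hypothalamus and 6 of 6 striatum markers were called lower. The part of these shifts in the protocadherin values was not tested.

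On the estimated counts, edgeR called no member at an adjusted p of 0.05 in any comparison and 12, 7, 3, 1 and 3 at an unadjusted p under 0.05, in the order of the comparisons above. Of all tested genes it called 0.00467% in MS_W versus C_W, MS_O versus C_O and MS_O versus MS_W and 0% in the others at the adjusted threshold, and 9.37%, 8.54%, 4.47%, 5.65% and 8.1% at the unadjusted one. DESeq2 called 2, 1, 1, 0 and 2 members at the adjusted threshold, against 1.82%, 0.804%, 0.252%, 0.369% and 0.706% of all tested genes. Pcdhb15 was among them in 4 comparisons, with adjusted p-values by DESeq2 of 0.0469 (MS_W versus C_W), 0.00823 (MS_O versus C_O), 0.000118 (C_O versus C_W) and 7.5e-05 (interaction). The others were Pcdhgb1 in MS_W versus C_W and Pcdhga8, high in C_W64 and MS_O46 only, in the interaction.

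Genes of promoter choice and chromatin, of the wider cadherin family, and of partners and processing were looked at as 3 lists. None of these lists had a gene past the adjusted threshold of limma in the 12 or the 10 libraries. Of 26 genes for promoter choice and chromatin, 1 was higher in MS_W than in C_W at an unadjusted p under 0.05, the repressor Rest (log2FC 0.29, SE 0.13), or 3.85% against 6.71% of all tested genes. Without C_O72 and MS_W95, Rest (0.26) was no longer called. The cohesin factor Pds5b (0.21) and the demethylase Kdm1a (0.18) were called higher there, against 9.66% of all tested genes. In MS_O versus C_O, 6 of the 26 were higher and none lower, or 23.1% against 6.69% of all tested genes called higher. They were the cohesin subunit Smc3 (0.31), the maintenance methyltransferase Dnmt1 (0.29), the corepressor Trim28 (0.37), the histone methyltransferase Ehmt1 (0.44), the demethylase Kdm1a (0.26) and the methyl-CpG binding protein Mbd2 (0.29). Without the 2 libraries Smc3, Trim28, Ehmt1 and Mbd2 remained called, and Dnmt1 (0.28) and Kdm1a (0.15) did not. The cohesin subunit Smc1a (0.20) was called as well, so that 5 of the 26 were called higher, against 9.62% of all tested genes.

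Smc3 was also lower in C_O than in C_W (-0.31, SE 0.12, and -0.27 in the 10 libraries), so that both of its calls used the C_O libraries. It was 1 of 26 called there, against 3.55% of all tested genes. None of the 26 was called in MS_O versus MS_W or in the interaction. In the 10 libraries the cohesin factor Pds5b was called in both (-0.32 and -0.28), against 8.54% and 7.51% of all tested genes. Ctcf was not called in any comparison.

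Of 20 tested members of the wider cadherin family, none was called in MS_W versus C_W, C_O versus C_W or MS_O versus MS_W, against 10.5%, 3.55% and 6.09% of all tested genes. In MS_O versus C_O, 4 were called, or 20% against 8.88% of all tested genes. The non-clustered protocadherin Pcdh20 (0.88, SE 0.33) and the giant cadherins Fat3 (0.79, SE 0.31) and Dchs1 (0.66, SE 0.22) were higher, and the classical cadherin Cdh2 (-0.34, SE 0.15) was lower. Of these, Pcdh20 (0.65) was not called in the 10 libraries. The non-clustered protocadherin Pcdh1 (-0.32) was called lower there. This gave 2 higher and 2 lower, against 9.62% and 3.99% of all tested genes. Fat3 was the 1 gene of this list called in the interaction (1.05, SE 0.44), or 5% against 7.23%. In the 10 libraries Fat3 (0.52) was not called in the interaction and Pcdh8 (-0.71) was, against 7.51% of all tested genes. The non-clustered protocadherins Pcdh8 (0.48), Pcdh17 (0.46) and Pcdh19 (0.32) were called higher in MS_W than in C_W in the 10 libraries, against 9.66% of all tested genes. There they were also called lower in MS_O than in MS_W (-0.53, -0.53 and -0.49), against 8.54% called in either direction. Both sets of calls used the same 2 MS_W libraries.

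Of 26 partners and processing enzymes, the adhesion protein Ctnnb1 (0.32, SE 0.14) and the sorting nexin Snx27 (0.35, SE 0.12) were higher in MS_W than in C_W, or 7.69% of the list, near the 6.71% of all tested genes. The kinase Fyn (0.48, SE 0.18) was the only one called in MS_O versus C_O, or 3.85% against 6.69% called higher. None was called in C_O versus C_W. In the 10 libraries Ptk2b (0.25) and Lmo7 (0.64) were called higher there, against 4.06% of all tested genes called in either direction. Snx27 was lower in MS_O than in MS_W (-0.40, SE 0.12) and was called in the interaction (-0.61, SE 0.17), in both cases as the only gene of the list, against 6.09% and 7.23% of all tested genes. Snx27 remained called in its 3 comparisons in the 10 libraries (0.29, -0.34 and -0.43), while Ctnnb1 (0.33) and Fyn (0.45) were not called. In MS_W versus C_W, Marcks (0.66), Ret (0.51) and Lmo7 (0.87) were also called higher there and Ptk2 (-0.32) lower. With Snx27 these were 4 higher and 1 lower of 26, against 9.66% and 5.69% of all tested genes. In MS_O versus C_O, Ret (0.61) was higher and Cyfip2 (-0.58) lower, against 9.62% and 3.99%. Lmo7 (-1.01) was also called in the interaction, against 7.51%.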

How the data were processed

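Per the labels and methods, poly(A) RNA from 12 brains was sequenced, trimmed with cutadapt 1.9, aligned to mm10 with HISAT2 2.0.4 and assembled with StringTie 1.3.4d. FPKM were estimated by the authors with StringTie and Ballgown, and a gene without an estimate was listed at 0.0001. The deposited estimated counts were derived from coverage by the authors and are not whole reads. How reads with several alignments were divided is not given in the sources used here.

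Differences were tested in R 4.3.3 on log2(FPKM + 1) by limma 3.58.1 (lmFit, then eBayes with a trend), fitting all 4 groups together over the 21393 genes whose mean FPKM reached 0.1, and p-values were adjusted by Benjamini and Hochberg over all of them. A log2FC on this scale understates the change of low genes. With 3 mice a group, an exact permutation test cannot go below 0.1. edgeR 4.0.16 and DESeq2 1.42.0 on the estimated counts, pseudocounts of 0.1 and 0.01, other filters and scalings, and leaving out libraries were alternatives. The fits were tested on simulated data. Named were the C-type members, the highest and lowest member of each cluster, members with an unadjusted p under 0.05 or the 2 largest changes each way, members at the floor in some libraries and above 1 FPKM in others, the 5 genes most like the beta sum, and list genes past the unadjusted threshold. Other members named for their levels by library were picked once their values had been seen. The members and lists were chosen with earlier results of these data known. Exons were from GENCODE M21. Sums and plots used pandas 2.3.3 and matplotlib 3.10.9 (Python 3.11.15). Sequences were not printed.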

Additional observations from a re-analysis of the deposited data

Results flagged for a closer look

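Pcdhb15 was flagged because its interaction of CUMS and krill oil had an unadjusted p under 0.05 in limma, although its adjusted p was above 0.05. The interaction was 0.52 on the log2 scale (adjusted p = 0.462, 0.169 in the 10 libraries without C_O72 and MS_W95), and its adjusted p ranged from 7.5e-05 to 0.843 over the alternatives. The same term was 0.63 for Pcdhga1 (adjusted p = 0.665), whose FPKM was 1.99 in MS_O46 and between 0.391 and 1.43 in the other libraries. It was 0.83 for Pcdha6 (adjusted p = 0.665), whose FPKM was 0.274 in C_O72 and between 1.25 and 2.37 in the other libraries. In the 10 libraries the values of Pcdhga1 and Pcdha6 were 0.39 and 0.45, and neither kept an unadjusted p under 0.05. Outlying libraries within the groups of 3 were not tested.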

How the results depend on the processing

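Counts of members past the adjusted threshold were 0 in all comparisons and alternatives except for 1 in MS_W versus C_W without C_O72 and MS_W95 (Pcdhga6), and 2, 1, 1 and 2 by DESeq2 in MS_W versus C_W, MS_O versus C_O, C_O versus C_W and the interaction. At the unadjusted threshold, MS_O versus C_O (8 members) had 5 with a mean FPKM of at least 1, 2 after quantile normalization, and 3 with median centring or with only the groups compared. C_O versus C_W (1) had 0 with a mean FPKM of at least 1, 2 with median centring, 4 in the 10 libraries, 3 by edgeR and 4 by DESeq2. MS_O versus MS_W (0) had 2 with only the groups compared, 3 in the 10 libraries, 1 by edgeR and 5 by DESeq2. The interaction (3) had 1 with no filter or with a mean FPKM of at least 1, and 6 by DESeq2. Leaving out 1 library at a time gave 5 to 13, 2 to 14, 1 to 4, 0 to 4 and 1 to 5 members in the 5 comparisons. The count moved by over 1.5 times without C_W1 (6) or C_W70 (5) in MS_W versus C_W, without C_W1 (5), C_O72 (5), MS_O13 (14), MS_O46 (2) or MS_O78 (3) in MS_O versus C_O, and without C_W64 (1), C_W70 (1), C_O15 (5), MS_O13 (5) or MS_O46 (1) in the interaction. For krill oil the count became 2 (4 without C_O72) in C_O versus C_W without C_W70, C_O15, C_O30, MS_W95 or MS_O46, and in MS_O versus MS_W 4 without MS_O13, 2 without MS_W75 and 1 without C_W70, C_O72, MS_W31, MS_W95 or MS_O46. The causes were not tested. Beside these unadjusted counts, the share of all tested genes is given above only for the full fit, the 10 libraries and edgeR. No paired analysis was possible because mouse numbers are not shared between groups.

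Leaving out 1 library at a time, the log2FC of Pcdhgb4 ranged from -2.57 to 0.26 in MS_W versus C_W and from -2.33 to 0.50 in C_O versus C_W, above 0 without C_W1, and from -0.86 to 0.26 in MS_O versus C_O, above 0 without C_O30. That of Pcdhga2 ranged from -2.33 to 0.067 in MS_W versus C_W, above 0 without C_W64, and from -0.57 to 1.88 in MS_O versus MS_W, below 0 without MS_O13. The interaction of Pcdhga9 ranged from -0.041 (without C_W70) to 3.15 and was -0.18 in the 10 libraries, where that of Pcdhgc5 was -0.16. Each single library named here was led by the gene or held its highest value of the group. The log2 ratio of the alpha sum in MS_O versus MS_W moved from 0.08 to 0.21 without the C-type members. With only the 17 gamma members with the later end, an alternative chosen after seeing the data, the ratio of the gamma sum moved from 0.12 to 0.26 in MS_W versus C_W and from 0.14 to -0.00433 in MS_O versus MS_W.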
